A study of Rattus norvegicus with 15 samples.

Results

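The genes described here encode peptides that are best known from hypothalamic neurons, together with a pair of genes that are strongly expressed in the hypothalamus. They are Avp, Oxt, Pmch, Hcrt, Sst, Gal and Trh, the precursors of vasopressin, oxytocin, melanin-concentrating hormone, orexin, somatostatin, galanin and thyrotropin-releasing hormone. Dlk1 encodes a membrane protein related to the Notch ligands and is imprinted, and Hap1 encodes a protein that binds huntingtin and takes part in transport within neurons. They were chosen by symbol, with earlier results of these data in view, because several of them differed between groups, varied widely between control arrays and varied together. Each of the 9 genes had 1 probe set among the 31042 probe sets of the array that are not controls (14217 genes with a symbol), and 8 of them were bright enough to enter the statistical fit. Trh was below that filter.

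Male Sprague Dawley rats aged 10 to 12 weeks gave the tissue, the subfornical organ, and its RNA was hybridised to 15 Affymetrix arrays. There were 5 arrays of untreated controls, 5 of water-deprived rats and 5 of rats that had no food for 48 h. Each array carried the pooled organs of 5 animals, so that 25 animals stood behind a group and the arrays of a group were separate pools. How long water was withheld is not given in the sources used here, and the design text can be read as saying that food was withheld for 48 h in all 3 groups. The organ was dissected under a microscope from a brain slice, so the sample is a piece of tissue of mixed cell types. In such bulk tissue, fewer cells of a type and less RNA per cell cannot be told apart.

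The subfornical organ lies in the roof of the third ventricle outside the blood-brain barrier and senses angiotensin II and sodium. It sends axons to the magnocellular neurons of the paraventricular and supraoptic nuclei, which make vasopressin and oxytocin and release them from the posterior pituitary. Vasopressin makes the kidney retain water, and oxytocin acts on the uterus and mammary gland and, in the rat, promotes sodium excretion. Melanin-concentrating hormone and orexin are made by separate neurons of the lateral hypothalamus and bear on feeding and wakefulness. These cell bodies lie outside the subfornical organ.

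Avp and Oxt are neighbours on chromosome 3 of the GRCr8 assembly, with 0 annotated genes between them, their starts 12.8 kb apart and on opposite strands. Their promoters are shown because the pair had the most similar profiles across arrays among the 9 genes. The sequences, credited to RefSeq, are the 250 bases before the transcription start, read 5′ to 3′ on the gene's own strand. Capitals mark matches on either strand to AP-1 (TGANTCA), to the E-box (CANNTG) and to the nuclear receptor motif (AGGTCA). The Avp promoter lies at chr3:138248523-138248772 on the minus strand and the Oxt promoter at chr3:138235504-138235753 on the plus strand.
Avp: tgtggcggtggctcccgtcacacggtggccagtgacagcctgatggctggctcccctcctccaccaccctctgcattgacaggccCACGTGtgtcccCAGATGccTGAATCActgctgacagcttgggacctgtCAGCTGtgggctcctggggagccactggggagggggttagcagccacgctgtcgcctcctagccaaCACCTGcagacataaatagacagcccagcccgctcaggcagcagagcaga
Oxt: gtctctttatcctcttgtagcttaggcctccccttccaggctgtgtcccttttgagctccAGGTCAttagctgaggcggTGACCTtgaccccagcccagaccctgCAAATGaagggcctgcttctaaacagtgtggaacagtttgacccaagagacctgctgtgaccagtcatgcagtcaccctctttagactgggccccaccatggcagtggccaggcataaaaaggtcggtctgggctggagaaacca
Avp holds the AP-1 letters from base 145 to base 139 before the start and 4 E-boxes. Oxt holds the receptor motif at bases 190 to 185 and 171 to 166 before the start and 1 E-box, and no marked match overlaps another. Among 33469 rat promoters of this length, 6.34% hold the AP-1 letters, 65.5% an E-box and 14.1% the receptor motif. The cAMP response element TGACGTCA is held by 1.59% of all promoters and by 0 of the 8 member promoters in the table. The pair thus shares the E-box, which most promoters hold. A match of letters is a description of the sequence and does not show a binding site.

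Actb and Gapdh are each measured by control probe sets near the 5′ and the 3′ end, whose ratio placed the arrays in sets with a low and a high 5′/3′ ratio, a measure that falls with RNA breakdown and with short amplified RNA. The low set held 8 arrays, namely the 5 controls and water-deprived arrays 3 to 5, with mean log2 ratios from -2.81 to -1.24. Water-deprived array 3 stood alone at -2.81, and the others of the low set lay between -1.67 and -1.24. The high set held 7 arrays, the 5 food-deprived ones and water-deprived arrays 1 and 2, with ratios from -0.86 to -0.71. Controls and food-deprived arrays each lay wholly in 1 set, so food deprivation and array set cannot be told apart between them. Water deprivation had arrays in both sets and is therefore also compared within each set. With array set as a further term of the model, the water and control difference rests on the low set and the water and food difference on the high set. Over all 21729 probe sets tested by limma, 8.53% differed between food-deprived and control arrays at an adjusted p under 0.05, and 0 did with the array set as a term (smallest adjusted p 0.339, 1879 at an unadjusted p under 0.05).

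Avp was high in all controls, low in all food-deprived arrays and split within water deprivation. Its signal in controls 1 to 5 was 281, 1392, 939, 246 and 257. In food-deprived arrays 1 to 5 it was 26.7, 36.1, 45.9, 44.0 and 49.9. In water-deprived arrays it was 76.1 and 69.5 on arrays 1 and 2 and 1313, 856 and 314 on arrays 3 to 5. Every food-deprived array was below every control and below every water-deprived array. The water-deprived arrays of the low set lay inside the range of the controls. The high-set ones lay between the food-deprived arrays and the controls. Within its array, the Avp signal stood at percentile 35.8 to 52.5 of all probe sets in the food-deprived arrays, near the middle of each array.

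Oxt had the same arrangement. Its signal in controls was 409, 1885, 1797, 450 and 514, and in food-deprived arrays 57.5, 73.0, 91.3, 80.6 and 92.1. In water-deprived arrays 3 to 5 it was 1325, 2344 and 431, and in arrays 1 and 2 it was 189.5 and 77.1. All food-deprived arrays were below all controls, but water-deprived array 2 lay within the food-deprived range. The highest Oxt signal of the series was on water-deprived array 4 and the lowest on food-deprived array 1.

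Pmch, made by a different hypothalamic cell type, was likewise lower in the high set but ordered the controls differently. In controls its signal was 274, 62.1, 767, 358 and 146. In food-deprived arrays it was 38.6, 43.9, 8.19, 37.9 and 34.0. In water-deprived arrays it was 22.1, 59.2, 357, 286 and 171, the low values again on arrays 1 and 2. Control 2, which had the highest Avp and Oxt of the controls, had the lowest Pmch. Control 3 was high in all 3 genes.

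Hcrt neurons lie beside the Pmch neurons in the lateral hypothalamus, yet its signal did not follow the array sets. It was 94.0, 234, 160, 202 and 64.9 in controls, 83.2, 105, 108, 117 and 88.8 in water-deprived arrays and 132, 94.2, 92.5, 89.2 and 88.8 in food-deprived arrays. All 3 groups overlapped. Its high values were on controls 2 to 4.

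The other peptide genes had low signals with overlapping groups. Sst, an inhibitory peptide of many interneurons as well as hypothalamic neurons, ranged from 38.9 to 93.7 in controls (median 51.6), from 31.7 to 220 in water-deprived arrays (median 51.8) and from 29.5 to 51.3 in food-deprived arrays (median 35.0). Its highest value by far was on water-deprived array 4, where Oxt was also highest. Gal, which magnocellular neurons coexpress with vasopressin, ranged from 46.8 to 110 in controls (median 54.4), from 38.5 to 90.6 in water-deprived arrays (median 54.0) and from 36.4 to 71.4 in food-deprived arrays (median 49.5). Control 2, highest in Avp and Oxt among controls, was also highest in Sst and Gal. Trh was dim, at 12.3 to 27.9 in controls, 4.81 to 27.5 in water-deprived arrays and 3.56 to 29.2 in food-deprived arrays.

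Dlk1 and Hap1 were both lowest of all on water-deprived arrays 1 and 2. Dlk1 was 155, 98.6, 111, 161 and 105 in controls and 95.8, 82.1, 79.0, 65.5 and 72.2 in food-deprived arrays, with no overlap. In water-deprived arrays it was 59.1 and 42.4 on arrays 1 and 2, below every food-deprived array, and 171, 116 and 137 on arrays 3 to 5. Hap1 was 628, 467, 628, 908 and 486 in controls, and its food-deprived values of 648, 485, 514, 515 and 455 overlapped them. In water-deprived arrays Hap1 was 313 and 318 on arrays 1 and 2, and it was 790, 743 and 572 on arrays 3 to 5.

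**Figure D1:**
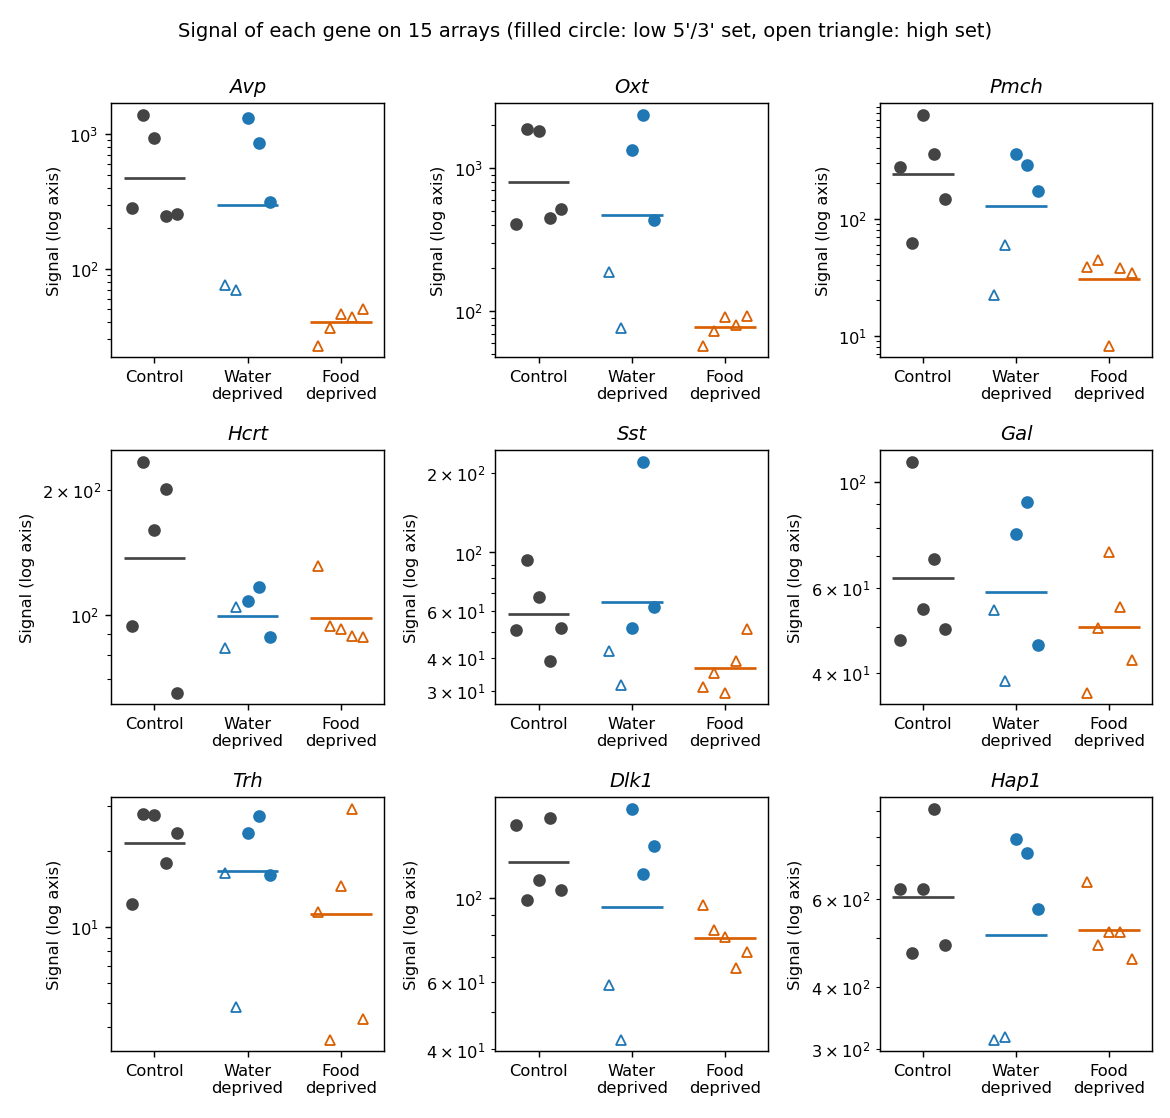
Signal (log axis) of each of the 9 genes on every array by group, with filled circles for the low and open triangles for the high 5′/3′ set and a bar at the group mean of log2(signal + 16) turned back to signal. Avp, Oxt, Pmch and Dlk1 show food-deprived arrays wholly below the controls, and water-deprived arrays divided by array set.

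Counted over the 9 genes, 4 (Avp, Oxt, Pmch and Dlk1) had every food-deprived array below every control, where 5.61% of all tested probe sets did. This count describes genes chosen for that contrast. Between water-deprived and control arrays 0 of 9 had separate groups in either direction, against 0.368% of probe sets that were wholly lower and 0.373% that were wholly higher. Only Avp was wholly lower in food-deprived than in water-deprived arrays, against 1.47% of probe sets. The same 4 genes had every high-set array below every low-set array, as 3.1% of probe sets did. Within the low set, 0 of 9 had water-deprived arrays wholly below or above the controls, against 1.92% and 1.12% of probe sets. Within the high set, Dlk1 and Hap1 were wholly lower and Avp wholly higher in water-deprived arrays, against 11.4% and 10.4% of probe sets. Avp, Oxt, Pmch, Sst, Dlk1 and Hap1 were lower on both high-set water-deprived arrays than on the 3 low-set ones, which held for 19.2% of probe sets with groups of that size.

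On the log2(signal + 16) scale, which understates folds of dim genes, Avp was lower by 8.79-fold in food-deprived than in control arrays (log2 difference -3.14, SE 0.69). For Oxt the difference was -3.12 (SE 0.71) and for Pmch -2.46 (SE 0.62). No tested probe set was further below 0 than Avp, and 0.0046% and 0.0184% were further below than Oxt and Pmch. These values chose the genes and carry no test here. With the array set as a term the differences were -0.10 (SE 0.81) for Avp, -0.097 (SE 0.85) for Oxt and -0.093 (SE 0.85) for Pmch, all far smaller than their standard errors. Leaving out 1 array moved them from -0.54 to 0.47 for Avp, from -0.67 to 0.57 for Oxt and from -0.58 to 0.40 for Pmch, so neither their sign nor their size was settled in that fit.

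By the design, the array-set term is the difference between the 2 sets inside water deprivation. Water-deprived arrays 1 and 2 were lower than arrays 3 to 5 by 8.19-fold for Avp (log2 difference -3.03, SE 0.66), 8.12-fold for Oxt (-3.02, SE 0.70) and 5.16-fold for Pmch (-2.37, SE 0.70). These sizes are close to those between food-deprived and control arrays, which restates the small differences given above for the fit with the term. Dlk1 and Hap1 were lower on arrays 1 and 2 by 2.35-fold (-1.23, SE 0.21) and 2.15-fold (-1.10, SE 0.23), larger than their differences between food-deprived and control arrays of -0.57 (SE 0.26) and -0.22 (SE 0.25). Sst, Gal and Hcrt stood at -1.03, -0.46 and -0.14 in the same comparison.

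With the array set as a term, the differences of Dlk1 and Hap1 between food-deprived and control arrays had the opposite sign, at 0.66 (SE 0.26) and 0.89 (SE 0.28). Leaving out single arrays kept these between 0.48 and 0.84 for Dlk1 and between 0.79 and 1.03 for Hap1. Sst went from -0.50 (SE 0.33) to 0.53 (SE 0.49) and Gal from -0.26 (SE 0.22) to 0.20 (SE 0.36). Hcrt kept its direction, at -0.43 (SE 0.24) and -0.29 (SE 0.44). The term rests on a comparison of 2 with 3 water-deprived arrays, so these values move with each of those 5 arrays.

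Water-deprived and control arrays overlapped for the magnocellular peptides. Avp differed from control by -0.65 (SE 0.69) over all arrays and by 0.56 in a fit of the 8 low-set arrays alone (SE 0.66). For Oxt these values were -0.75 (SE 0.71) and 0.46 (SE 0.67), and for Pmch -0.83 (SE 0.62) and 0.11 (SE 0.63). Within the low set, leaving out single arrays moved Avp between 0.13 and 1.13, Oxt between -0.075 and 1.12 and Pmch between -0.31 and 0.52. Oxt was lowest without water-deprived array 4 and Pmch lowest without control 2. Hcrt stood at -0.41 (SE 0.24) over all arrays and at -0.36 (SE 0.35) in the low set. Gal, Dlk1 and Hap1 had the opposite sign in the low set, at 0.11, 0.15 and 0.19 (SE 0.26, 0.19 and 0.21) against -0.080, -0.34 and -0.25 over all arrays. Sst stood at 0.12 over all arrays and at 0.53 (SE 0.39) in the low set.

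Water-deprived arrays exceeded food-deprived ones by 5.61-fold in Avp (2.49, SE 0.69), 5.17-fold in Oxt (2.37, SE 0.71) and 3.09-fold in Pmch (1.63, SE 0.62). In a fit of the 7 high-set arrays alone, the differences were 0.67 (SE 0.17), 0.56 (SE 0.26) and 0.21 (SE 0.35). The model of 15 arrays with the array set gave the same differences with SEs of 0.61, 0.64 and 0.64, which include the wide spread of the low set. In that model, leaving out 1 array moved Avp between 0.57 and 0.73, Oxt between -0.013 (without water-deprived array 1) and 1.13, and Pmch between -0.28 (without water-deprived array 2) and 0.70. Dlk1 and Hap1 stood at -0.51 (SE 0.15) and -0.69 (SE 0.13) in the high set alone, lower in water-deprived than in food-deprived arrays. Over all arrays Dlk1 and Hap1 stood at 0.23 and -0.031 in that comparison, so the fits differed in the sign of Dlk1 and the size of Hap1.

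**Figure D2:**
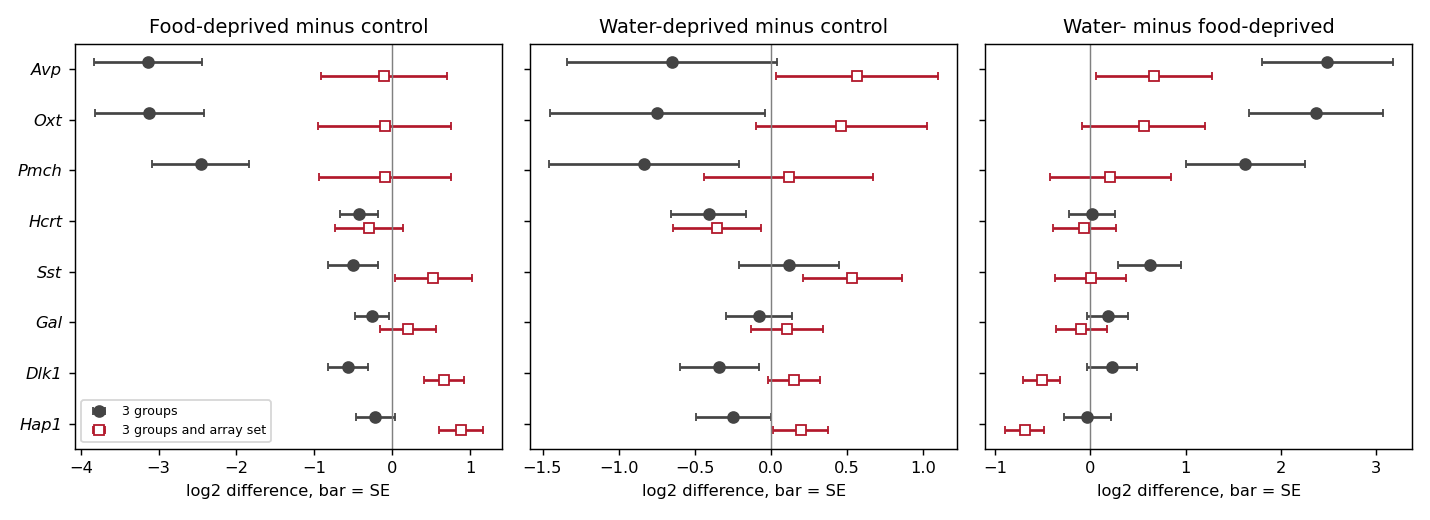
Log2 difference of log2(signal + 16) with its SE for the 8 tested genes in 3 comparisons, by the fit of the 3 groups (circles) and with the array set added as a term (squares). The circles of Avp, Oxt and Pmch at -3.14, -3.12 and -2.46 in the comparison of food deprivation with control move close to 0 with the term, while Dlk1 and Hap1 cross to positive values.

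The spread among the 5 control pools was itself wide for 4 of the 9 genes. The highest control signal exceeded the lowest by 5.66-fold for Avp, 4.61-fold for Oxt, 12.4-fold for Pmch and 3.61-fold for Hcrt. Their SDs of log2(signal + 16) were 1.15, 1.09, 1.26 and 0.68 (n = 5), where the median SD of all tested probe sets was 0.21. Only 0.58%, 0.732%, 0.4% and 3.51% of tested probe sets had a larger control SD than Avp, Oxt, Pmch and Hcrt. Sst (0.38), Gal (0.41), Dlk1 (0.30) and Hap1 (0.37) were closer to the other probe sets, of which 14.2% to 28.5% varied more. These wide spreads arose among arrays of a single treatment and a single array set. In water-deprived arrays, the SDs of Avp, Oxt and Pmch were 1.81, 1.91 and 1.39, which include the gap between array sets. In food-deprived arrays they were 0.25, 0.23 and 0.53.

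Avp and Oxt moved together from array to array. After removal of group means their Pearson r was 0.95 over 15 arrays (Spearman rho 0.975) and 0.95 without the 2 arrays farthest from the median of Avp. Within the low set of 8 arrays, which share their array set, r was 0.91 (rho 0.90), 0.84 without the 2 farthest arrays and 0.88 to 0.98 on leaving out single arrays. The 5′/3′ ratio still varied within the low set. Its r there was -0.27 with Avp, 0.026 with Oxt and 0.014 with Pmch. Without water-deprived array 3 these were 0.38, 0.45 and 0.72, and 0.061 with Dlk1 was the lowest among the members. The part of the ratio in the low-set correlations was not tested. Co-variation was a reason for choosing these genes, so r values are given as a description with no p.

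Pmch did not follow Avp and Oxt within the low set. Avp and Pmch gave r = 0.49 over 15 arrays (rho 0.37), but -0.0095 (rho 0.024) within the low set, and Oxt and Pmch 0.48 and 0.078. The low-set value rested on single controls, since Avp and Pmch gave 0.84 without control 2 and -0.43 without control 3. Control 2 had high Avp and low Pmch, as the signals above show.

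The other genes differed in which of these they followed in the low set. Gal gave r = 0.72 with Avp and 0.72 with Oxt (0.48 to 0.88 and 0.58 to 0.93 on leaving out single arrays). Sst gave 0.71 with Oxt (0.64 to 0.90), Trh 0.88 with Oxt (0.84 to 0.96) and Hcrt 0.75 with Gal (0.60 to 0.82). Trh was below the filter, at signals of 12.3 to 27.9 in the low set. Sst and Gal gave 0.55, but -0.40 without the 2 arrays farthest from the median of Sst. Dlk1 and Hap1 gave 0.72 with each other (0.54 to 0.86 on leaving out single arrays), and Hap1 gave 0.69 with Pmch (0.55 to 0.89). Dlk1 gave -0.57 with Oxt, -0.72 with Sst and -0.70 with Trh, but -0.38 with Avp (-0.13 without control 2), -0.29 with Gal (0.093 without control 2) and -0.019 with Hcrt. Over all 15 arrays, 35 of the 36 pairs were above 0 (median r 0.49), while in the low set 22 were (median 0.31). The shared gap between array sets within water deprivation enters the first of these counts and not the second.

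**Figure D3:**
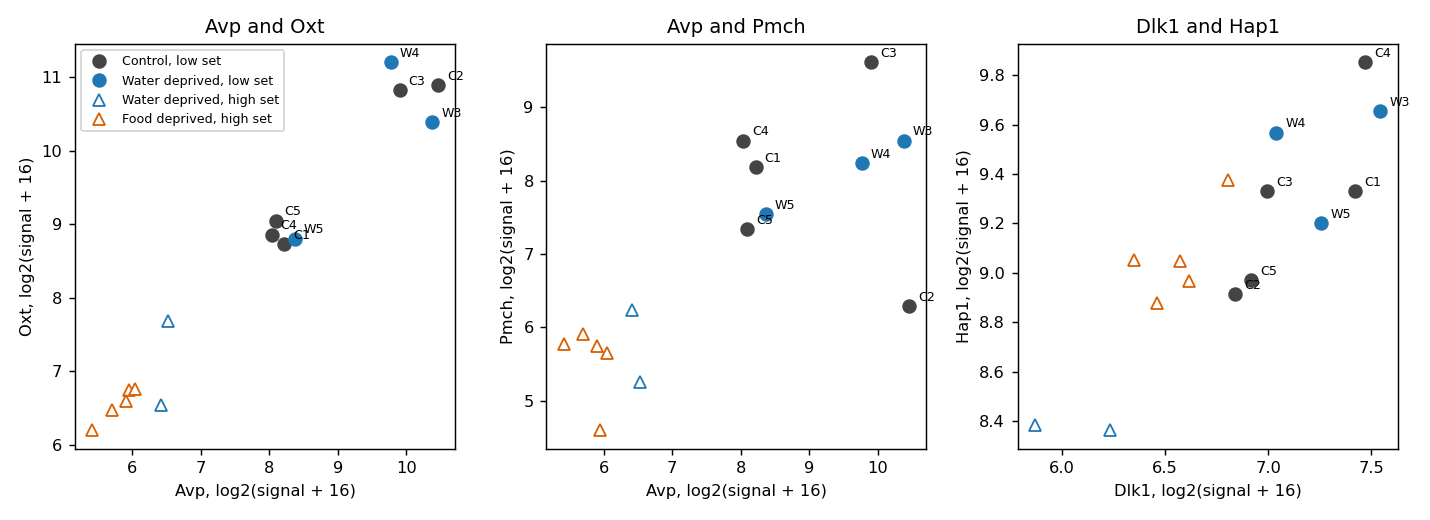
Log2(signal + 16) of Oxt against Avp, Pmch against Avp and Hap1 against Dlk1 on 15 arrays, coloured by group, with letters naming the low-set arrays (C for control, W for water-deprived). Oxt follows Avp along the whole range, while control 2 sits at high Avp and low Pmch.

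**Figure D4:**
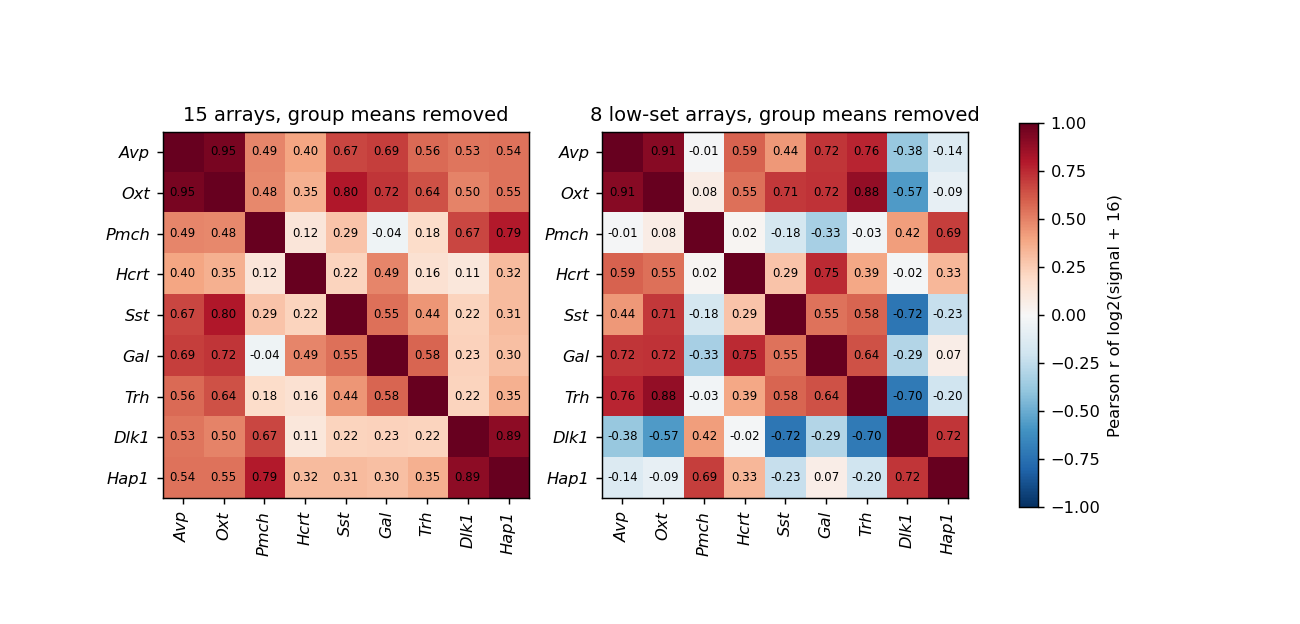
Pearson r between the 9 genes after removal of group means, over all 15 arrays and over the 8 low-set arrays, with colour from -1 to 1. Nearly all pairs are above 0 on the left. On the right Avp, Oxt, Sst, Gal and Trh are positive with each other, and Dlk1 is negative with each of them. Some of these rest on few arrays. Sst with Gal gives -0.40 without the 2 arrays farthest from the median of Sst, and Dlk1 with Gal 0.093 without control 2.

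Genes outside the 9 were ranked by how closely their deviations followed the mean of Avp and Oxt over 15 arrays. The 10 closest were Zfyve27 (r = 0.95), Aplp1, Rac1, Brd7 and Usp4 (each 0.91), Faim2, Lpcat4 and Hid1 (each 0.89) and Rbbp5 and Strn4 (each 0.88). Zfyve27 encodes protrudin, a protein of neurite outgrowth, and Aplp1 a neuronal relative of the amyloid precursor protein. They varied far less than Avp and Oxt, with Zfyve27 between 54.5 and 117 and Rac1, a small GTPase, between 892 and 1213. Of the 11510 genes, 0.999% had r over 0.8, so a close match in 15 arrays was not rare. Zfyve27 kept r = 0.94 and Rac1 0.91 in the low set.

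The genes closest to Pmch were others. Atmin gave r = 0.90, Myh10 0.88, Prkci 0.87 and Cd47 and Morn4 0.85, and in the low set Atmin gave 0.92 with Pmch and -0.078 with Avp and Oxt. Of all genes, 0.426% had r over 0.8 with Pmch. The genes that ran most opposite to Avp and Oxt were Pik3r3 and Golph3 (-0.95 each), Parp16 (-0.94), Lrrc58 (-0.92) and Arih1 (-0.90). Golph3, a Golgi protein in the secretory path, ranged from 38.4 to 175.

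Receptors for these peptides were mostly dim. Of 18 receptor genes, 17 had a probe set and 7 passed the filter. The vasopressin and oxytocin receptors Avpr1a, Avpr1b, Avpr2 and Oxtr, the receptors Mchr1, Hcrtr2, Galr1, Galr3 and Sstr5 and the peptidase Lnpep were below it and were not tested. Between food-deprived and control arrays, 3 receptor genes rose and 0 fell, against 4.77% of all tested probe sets that rose. The median log2 difference of the 7 was 0.56, and 0.046 over all probe sets.

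The receptors that rose in food-deprived arrays bind somatostatin or galanin. Sstr2 had a signal of 13.8 to 29.9 in controls (median 23.2) and 33.6 to 62.4 in food-deprived arrays (median 46.2), a log2 difference of 0.65 (SE 0.14, limma adjusted p = 0.0129). Galr2 had 12.9 to 26.8 in controls (median 21.6) and 28.0 to 74.0 (median 46.9), a difference of 0.82 (SE 0.19, limma adjusted p = 0.0166). Both genes had groups that did not overlap. The share of all probe sets wholly higher in food-deprived arrays is not given here, and 5.61% of those tested were wholly lower. Another Galr2 probe set gave -0.13. Sstr3 went from 29.4 to 47.2 in controls (median 42.6) to 57.7 to 79.1 (median 71.9), a difference of 0.60 (SE 0.16, limma adjusted p = 0.0291). Sstr2 and Galr2 kept the call when any 1 of the 15 arrays was left out, while Sstr3 lost it without any 1 of 7 arrays, food-deprived 1, 2 and 3 and controls 1, 3, 4 and 5.

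With the array set as a term 0 receptors passed by limma and 0 had an unadjusted p under 0.05, at 0.45, 0.60 and 0.14 for Sstr2, Galr2 and Sstr3, and the median of the 7 was 0.11. Sstr4 stood at 0.56 (limma adjusted p = 0.0821), and Trhr, Sstr1 and Hcrtr1 at 0.12, -0.0073 and -0.023, none of which passed. In both comparisons with water deprivation 0 of 7 receptors passed by limma, and 1 had an unadjusted p under 0.05 in each. The summed receptor signal was 157 to 199 in the low set and 228 to 316 in the high set, so it moved with the array set, and the part of the array set in these calls was not tested beyond the fit with the term.

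Other peptide genes of the hypothalamus were described from a list of 27, of which 21 had a probe set and 10 passed the filter. Of the 10, 0 passed in food-deprived against control arrays by limma, with 1 at an unadjusted p under 0.05 (median -0.031). Against food-deprived arrays, water-deprived arrays had 2 genes higher, where 0.133% of all tested probe sets were higher and 0.152% differed in either direction. Cartpt, an appetite-suppressing peptide, was higher by 1.12 (SE 0.20, limma adjusted p = 0.0459), and Grp, gastrin-releasing peptide, by 1.09 (SE 0.18, limma adjusted p = 0.0301). Each lost the call without any 1 of 8 arrays, food-deprived 1 to 4, water-deprived 3 to 5 and control 1. In the high set alone, where 0.377% of all tested probe sets passed, Cartpt kept its call at 0.72 (limma adjusted p = 0.0376) and Grp lost it at 1.12 (limma adjusted p = 0.0776). Neither passed in the model of 15 arrays with the array set as a term. In the low set, 6 of the 10 genes had r above 0 with Avp and Oxt (median 0.47). The mean of the 10 genes gave r = 0.75 with Avp and Oxt (rho 0.64) and 0.35 with Pmch, and Cartpt alone gave 0.82.

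Genes that mark the hypothalamus by development or enriched expression had 28 of 47 members tested. Between food-deprived and control arrays 2 fell and 0 rose, where 3.76% of all tested probe sets fell. Six3, a transcription factor of the ventral forebrain, fell from 19.3 to 58.3 in controls to 2.68 to 8.21 in food-deprived arrays (-1.52, SE 0.28, limma adjusted p = 0.00575). Ahi1, a binding partner of Hap1, fell from 210 to 394 in controls to 52.8 to 156 (-1.56, SE 0.28, limma adjusted p = 0.00512), while another Ahi1 probe set gave 0.44. Both were also lower on water-deprived arrays 1 and 2, at 8.31 to 14.1 for Six3 and 152 to 165 for Ahi1. Both calls held when any 1 array was left out, and neither passed with the array set as a term. In the low set the mean of these 28 genes gave r = -0.26 with Avp and Oxt and 0.66 with Pmch. Singly, 14 of the 28 had r above 0 with Avp and Oxt (median -0.0013).

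Among factors that specify the magnocellular and parvocellular neurons, Sim1, Otp and Pou3f2 were dim on all 15 arrays and were not tested, whereas Arnt2, the partner of Sim1 that is also expressed in many other neurons, ranged from 125 to 277. These genes were singled out after their values were seen. Sim1 stayed at or under 11.8, Otp at or under 10.7 and Pou3f2 at or under 2.02, and the peptide genes Crh and Pomc at or under 20 and 15.3. Nkx2-1, another factor of the hypothalamic list, ranged from 93.7 to 510. Avp stood at percentile 86.9 to 99.0 of all probe sets in the control arrays. Which cells its RNA came from was not tested.

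Further lists placed Dlk1, Hap1 and the peptide machinery beside related genes. Their counts between food-deprived and control arrays stand against 4.77% of all tested probe sets that rose and 3.76% that fell, and are small enough that several lie near those shares. Of 15 imprinted genes tested, Nnat fell in food-deprived arrays (-1.54, SE 0.42, limma adjusted p = 0.0346) and Snrpn rose (1.32, limma adjusted p = 0.00631). Nnat, like Dlk1, turned positive with the array set as a term (0.73). Of 16 Notch pathway genes, Notch3 (0.42) and Notch4 (0.86) rose (limma adjusted p = 0.026 each) and 0 fell. Of 14 Hap1 partners and transport genes tested 0 rose and only Ahi1 fell by limma, with 2 of the 14 at an unadjusted p under 0.05. Of 22 genes of prohormone processing and secretory granules, the carboxypeptidase genes Cpe rose (0.47, limma adjusted p = 0.0402) and Cpd fell (-1.05, limma adjusted p = 0.0122). Vgf, a granule protein, was higher in water-deprived than in food-deprived arrays (2.03, SE 0.33, limma adjusted p = 0.0301). In the high set alone Vgf kept its call at 1.14 (limma adjusted p = 0.0156). Snrpn and Cpd kept the call without any 1 array. Nnat lost it without any 1 of the 10 food-deprived and control arrays, Cpe without any of these but food-deprived array 4, and Vgf without food-deprived 1 to 4, water-deprived 3 to 5 or control 1. Notch3 lost it without food-deprived 2, 3 or 5 or control 1 or 3, and Notch4 without food-deprived 1, 3 or 5 or control 3 or 5. In the model of 15 arrays with the array set as a term none of these 7 genes passed in the same comparison.

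Markers of the tissues around the subfornical organ also varied between arrays of the low set. Of 16 white matter genes tested, all 16 had r above 0 with Avp and Oxt in the low set, and the list mean gave 0.61. By Pearson r, list means of cell types found throughout the brain were near this, at 0.61 for neuron, 0.58 for microglia and 0.50 for astrocyte and tanycyte genes. That of Hap1 partners and transport genes was 0.82. Spearman rho was 0.67 for white matter, 0.38 for neuron, 0.48 for microglia and 0.31 for astrocyte and tanycyte genes. For Hap1 partners and transport genes rho was 0.79. List correlations are not given without single arrays, so how far they rest on control 2 was not tested. The summed signal of the white matter genes was highest on control 2, at 20177, and lowest on water-deprived array 3, at 5749. Of 17 choroid plexus genes, 0 had r above 0 with Avp and Oxt and the list mean gave -0.45 (rho -0.36). Genes of the hippocampus and septum summed to 5438 on water-deprived array 3 and to 332 to 987 on the other arrays. By group, white matter genes summed to 6297 to 20177 in controls, 5749 to 15182 in water-deprived and 12584 to 18420 in food-deprived arrays, and choroid plexus genes to 5929 to 26955, 4392 to 31867 and 12193 to 25803. In food-deprived against control arrays 0 genes of either list passed by limma (medians 0.44 and 0.46), with 2 and 1 at an unadjusted p under 0.05. With the array set as a term the white matter median was -0.012 and the choroid plexus median -0.85, with 2 of 17 choroid plexus genes above 0 in place of 15.

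Genes that mark the subfornical organ itself were present, with 11 of 18 tested and a summed signal of 2181 to 3428. In the model of 15 arrays with the array set as a term, Casr, the calcium-sensing receptor, and the granule gene Vgf were higher in water-deprived than in control arrays (1.35, SE 0.20, limma adjusted p = 0.0227, and 1.89, SE 0.24, limma adjusted p = 0.0148), as 0.0276% of all tested probe sets were. Neither passed without the term. Neither passed in a fit of the 8 low-set arrays alone (limma adjusted p = 0.307 for both), where 0 probe sets passed and 782 had an unadjusted p under 0.05. In the low set, 3 of the 11 subfornical organ genes had r above 0 with Avp and Oxt (median -0.31). Their list mean gave r = -0.53 (rho -0.40) with Avp and Oxt and 0.61 with Pmch. This mean of log2(signal + 16) was 6.88 on control 2 and 7.07 to 7.37 on the other controls. How far these correlations rest on control 2 was not tested. Agtr1a, the angiotensin receptor of this organ, had a signal of 243, 54, 152, 279 and 152 in controls, so that control 2, highest in Avp and Oxt, was lowest in Agtr1a. Nkx2-1, a transcription factor of the developing hypothalamus, had 377, 94, 277, 510 and 298 and was also lowest in control 2. On water-deprived arrays 3 to 5, also of the low set, Agtr1a was 347 to 416 and Nkx2-1 was 368, 374 and 253. Avp there was 314 to 1313 and Oxt 431 to 2344. These arrays differ from the controls in treatment, so their levels do not extend the order seen among controls. Agtr1a had 2 probe sets, of which the brighter is given. Whether the amount of neighbouring tissue in a pool contributed to the spread of Avp, Oxt and Pmch was not tested.

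**Figure D5:**
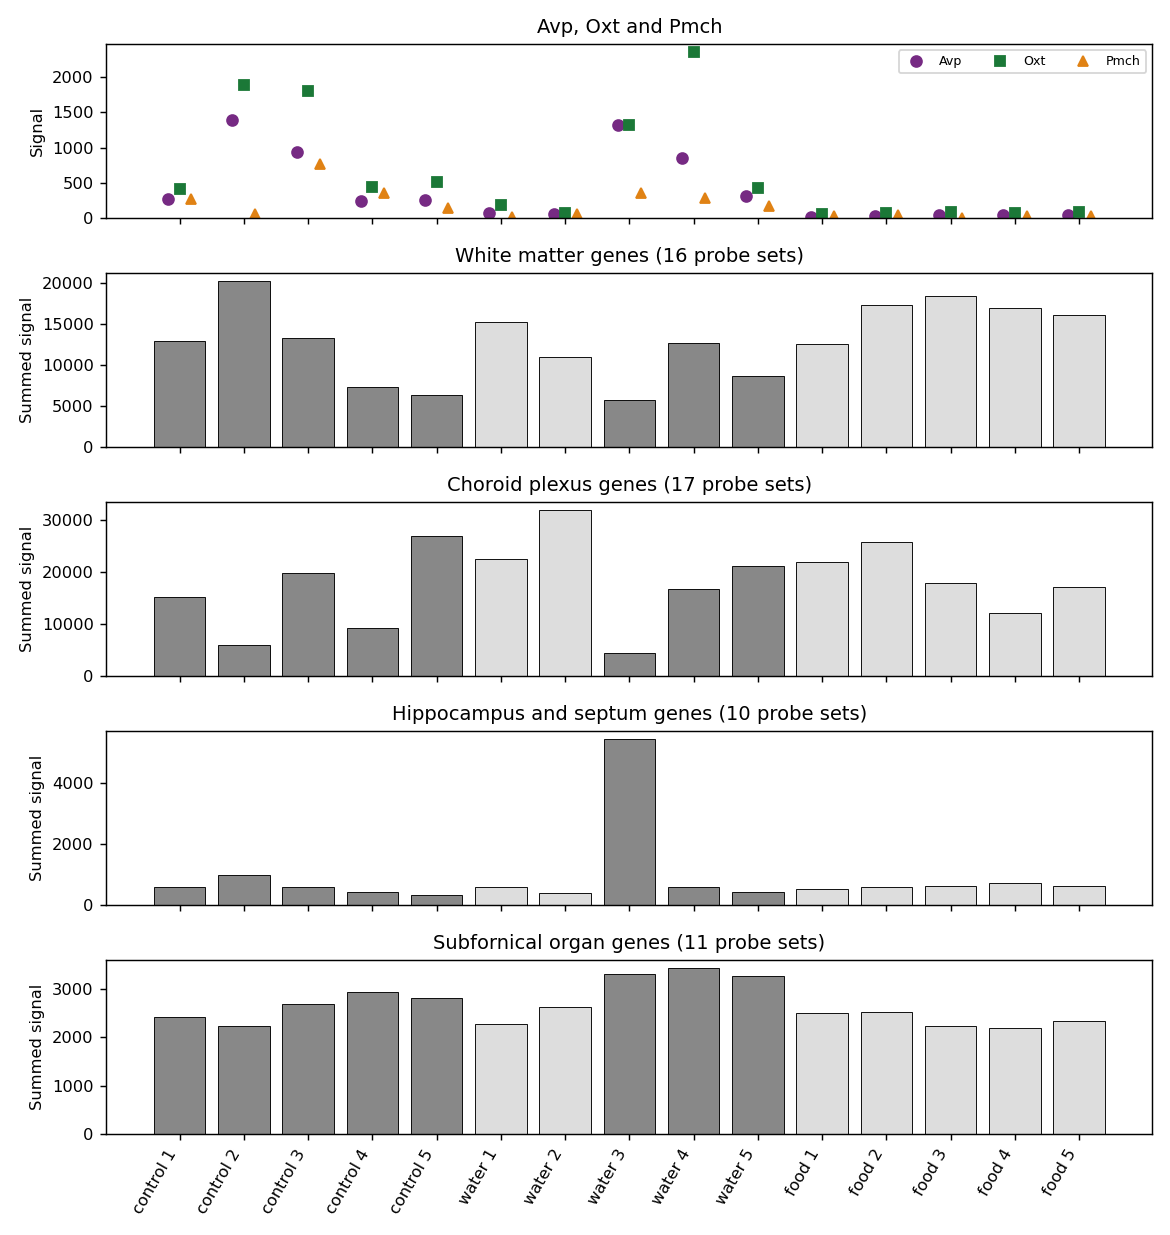
Signal of Avp, Oxt and Pmch on each array (top) and summed signal of marker genes of white matter, choroid plexus, hippocampus and septum, and subfornical organ, with dark bars for the low and light bars for the high 5′/3′ set. White matter genes peak on control 2 and are lowest on water-deprived array 3, where hippocampal genes peak. Avp and Oxt are high on both of these arrays and also on control 3 and water-deprived array 4, where neither list peaks.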

How the data were processed

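Per the submitters' processing notes the authors used GCOS 1.2, and the deposited table holds an unlogged signal intensity for each probe set. The role of the program is not given in the sources used here. Every deposited array had a trimmed mean of 100.0 (2% trimmed at each end), so no further normalization was applied, and log2(signal + 16) was computed from the deposited intensity. Probe sets were tested where the mean of all arrays exceeded the 30th percentile of the 31042 probe sets that are not controls (5.11 on the log2 scale), which left 21729 probe sets and 11510 genes. A symbol was unique for 20826 probe sets, 436 had several and 9780 had none, and a gene was read from its brightest tested probe set with 1 symbol. R 4.3.3 and limma 3.58.1 fitted the 3 groups together (12 residual degrees of freedom, variance trend, two-sided, Benjamini-Hochberg over all probe sets tested, threshold 0.05). A fit with the array set, split at a mean log2 5′/3′ ratio of -1 chosen with the data in view, had 11. The fit was tested on simulated data.

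The members and lists were chosen with earlier results of these data known, so member differences, spread and correlations have no p-value. Named outside the members were up to 4 passing genes per list and direction, the peptide receptors, and the 10 genes most like and 5 least like Avp and Oxt and the 5 most like Pmch. Nkx2-1, Agtr1a, Sim1, Otp, Pou3f2, Crh, Pomc and Arnt2, and Casr and Vgf in water-deprived against control arrays, were added after their values were seen. Arrays give no counting interval, so their number limits the precision. Promoters came from RefSeq (GRCr8; 8 of 9 members matched). Figures used Python 3.11.15 and matplotlib 3.10.9.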

Additional observations from a re-analysis of the deposited data

Results flagged for a closer look

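Among 183 groups of 5 arrays examined (61 genes in 3 groups), 4 held a value whose gap to the nearest other value, divided by the range of the group on the log2 scale, exceeded the critical value of 0.71. Chance alone would put about 1 in 20 groups past it. Pmch on food-deprived array 3 was the lowest of its group with a gap of 0.802 of the range, at a signal of 8.19 against 34.0 on the nearest array. Hcrt on food-deprived array 1 was the highest of its group with a gap of 0.854, at 132 against 94.2. Galr2 on water-deprived array 1 was the highest with 0.824, at 31.5 against 19.9. Strn4, one of the genes that followed Avp and Oxt, was lowest on food-deprived array 5 with 0.76, at 168 against 202.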

How the results depend on the processing

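Leaving out single arrays moved the food-deprived minus control count of calls from 1854 to between 807 (without control 1) and 2854 (without water-deprived array 3), and by over 1.5 times also without any 1 food-deprived array or control 3 or 5. The water-deprived minus control count of 1 ranged from 0 to 2. The water-deprived minus food-deprived count of 33 ranged from 0 to 771 (without water-deprived array 1). It was 535 without water-deprived array 2, 95 without food-deprived array 5, 51 without control 4 or 5, 17 without control 3, 2 without control 1 or food-deprived array 3, and 0 without food-deprived array 1, 2 or 4 or water-deprived array 3, 4 or 5. Food-deprived minus control ranged from -3.36 to -2.76 for Avp, -3.35 to -2.81 for Oxt and -2.89 to -2.06 for Pmch. Water-deprived minus control ranged from -1.17 to -0.18, -1.32 to -0.15 and -1.26 to -0.35, and water-deprived minus food-deprived from 1.97 to 2.96, 1.80 to 2.97 and 1.28 to 2.11. The correlation of Avp with Oxt ranged from 0.945 to 0.969 and that of Avp with Pmch from 0.32 to 0.85 (without control 2). With the array set as a term the 3 counts were 0, 6 and 0. Avp, Oxt and Pmch then stood at -0.10, -0.097 and -0.093 in food-deprived minus control arrays, 0.56, 0.46 and 0.11 in water-deprived minus control arrays and 0.67, 0.56 and 0.21 in water-deprived minus food-deprived arrays, Nnat at 0.73 and Cpe at -0.060. Low-set arrays alone gave a water-deprived minus control count of 0, and high-set arrays alone a water-deprived minus food-deprived count of 82. Avp with Oxt gave 0.89 with deviations within the array set, and Avp with Pmch -0.042, or -0.0095 in the low set. The share of higher calls in food-deprived minus control arrays was 55.9%, 45.8% under quantile normalization and 35.6% under median centring, which shifted the median by 0.10, and the water-deprived minus food-deprived counts were 107 and 101. No filter gave a water-deprived minus control count of 3, and a filter at the 50th percentile gave counts of 1119, 0 and 71. Same-numbered arrays had correlations from -0.36 to 0.37, with 3 of 15 pairs over 0.1, so the numbers do not pair the samples, and the replicate block gave counts of 1254, 0 and 20. The causes were not tested.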

Other observations

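Ranked within the 8 arrays of the low set, a choice added after seeing the data, the genes that followed Avp and Oxt most closely were Dmrtc1a (r = 0.97), Scap (0.96), which escorts the sterol-sensing transcription factors, and Slc39a14 and Zfyve27 (0.94 each). Zfyve27 was in this ranking and in that over 15 arrays, whereas Slc39a14 gave -0.091 over 15 arrays. Pcsk6, a proprotein convertase gene, gave 0.94 in the low set and 0.52 over 15 arrays. For Pmch, Atmin led both rankings (0.92 in the low set). Of the 11510 genes, 1.33% had r over 0.8 with Avp and Oxt in the low set and 0.773% with Pmch.

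Few markers of other cell types passed between food-deprived and control arrays by limma, where 4.77% of all tested probe sets rose and 3.76% fell. Of 19 neuron, 14 astrocyte and tanycyte, 13 microglia and 11 subfornical organ genes 0 passed, with 1, 4, 2 and 1 at an unadjusted p under 0.05. Of 13 endothelial and mural genes Cldn5 (0.64) and Acta2 (0.56) rose, of 10 ependymal genes Ak7 fell (-0.74), of 13 thalamus and habenula genes Rora fell (-0.80, another probe set 1.06) and of 10 hippocampus and septum genes Emx1 rose (0.51). None of these 5 passed with the array set as a term, and each lost its call without any 1 of 6 to 10 single arrays. The term moved the median of the hippocampus and septum genes from 0.18 to 0.93, of the subfornical organ genes from 0.060 to 0.53, of the neuron genes from 0.084 to 0.34, of the ependymal genes from 0.00040 to -0.37 and of the astrocyte and tanycyte genes from 0.10 to 0.41, with 13 of these 14 above 0.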
